A study of Mus musculus with 18 samples.

Results

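The genes described here encode the co-receptors, adaptors and kinases that carry a signal from Toll-like receptors (TLRs) into the macrophage: Cd14, Ly96, Myd88, Tirap, Ticam1, Ticam2, Irak4, Irak2, Irak3 and Traf6. They are 10 of the 21938 protein-coding genes of the GENCODE M21 annotation outside the mitochondrial chromosome. Accessible sites were assigned to a gene when they overlapped its body or lay within 50000 bp of its most upstream start site. By this rule the 10 genes held 154 of 82391 reference peaks, 160 of 84660 summits and 106 of 59617 extended regions. A reference peak is a called stretch of open chromatin, a summit is its point of highest signal, and an extended region is a wider interval that can join neighbouring peaks. No peak, summit or region was counted for more than 1 of the 10 genes. Each summit carries a score deposited by the authors, whose scale is not stated in the sources used here, so that scores were only ranked within the list.

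Accessibility had been measured by ATAC-seq, in which the Tn5 transposase inserts adapters into exposed DNA, in macrophages differentiated from bone marrow (BMDMs), taken from male wild type C57/BL6 mice aged 6 to 8 weeks. The cultures of every group were first kept in DMSO, the vehicle, for 1 h. The untreated group received nothing more, and the others were given lipopolysaccharide (LPS) or IL-4 at 10 ng/mL for 30 min, 1 h, 2 h or 4 h, which gave 9 groups of 2 libraries. The lists are pooled over all 18 libraries and hold no column per library. A site is therefore known to be accessible in at least some of these cultures, but untreated, LPS and IL-4 cultures, time points, replicates and sequencing depth could not be compared, and no test was run. Accessibility in few cells and weaker accessibility in many cells cannot be told apart in a score. All 8 macrophage markers, tested by the presence of a peak no more than 1000 bp from a start site, had one, among them Csf1r and Adgre1. Of 19 markers of other cell types 7 had one, with best scores from 411 to 1094 against 1176 to 2021 for the macrophage markers. T cell and mast cell markers had none.

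LPS is handed by CD14 to the complex of TLR4 and MD-2, the product of Ly96. The sorting adaptor TIRAP then recruits MyD88, which assembles IRAK4 with IRAK1 or IRAK2, and the ubiquitin ligase TRAF6 passes the signal on to the kinases that activate NF-kB and AP-1. From endosomes TLR4 signals through the adaptor TRAM, encoded by Ticam2, and TRIF, encoded by Ticam1, towards IRF3 and interferon beta, while IRAK3, also called IRAK-M, dampens the MyD88 branch.

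Sequences are shown first for 6 summits inside genes that are referred to below, since the gene bodies of Irak2 and Irak3 held most of the intragenic sites. Each is a window of 201 bases centred on the summit, read from the GRCm38.p6 assembly, which has the mm10 coordinates, and written 5′ to 3′ on the strand of the gene. Names give how far downstream of the most upstream start site the summit lies, in bp. Capitals mark the consensus letters of transcription factor motifs. The windows lie at chr6:113644962-113645162 and chr6:113661595-113661795 (Irak2, plus strand), at chr10:120163585-120163785 and chr10:120188596-120188796 (Irak3, minus strand), at chr2:101696316-101696516 (Traf6, plus strand) and at chr1:16702924-16703124 (Ly96, plus strand). All 6 are intronic.
Irak2 at 6595 bp: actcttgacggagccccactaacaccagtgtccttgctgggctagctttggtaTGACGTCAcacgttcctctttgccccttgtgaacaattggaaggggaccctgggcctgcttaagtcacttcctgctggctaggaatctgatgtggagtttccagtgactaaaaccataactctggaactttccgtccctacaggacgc
Irak2 at 23228 bp: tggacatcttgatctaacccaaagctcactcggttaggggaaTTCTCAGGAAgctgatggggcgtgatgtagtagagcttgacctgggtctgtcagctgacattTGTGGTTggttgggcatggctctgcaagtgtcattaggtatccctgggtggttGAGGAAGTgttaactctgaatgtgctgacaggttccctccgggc
Irak3 at 38445 bp: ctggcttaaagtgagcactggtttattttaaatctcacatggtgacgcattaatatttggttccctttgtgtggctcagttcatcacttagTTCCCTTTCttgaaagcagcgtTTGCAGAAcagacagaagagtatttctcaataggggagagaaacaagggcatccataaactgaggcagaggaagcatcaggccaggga
Irak3 at 13434 bp: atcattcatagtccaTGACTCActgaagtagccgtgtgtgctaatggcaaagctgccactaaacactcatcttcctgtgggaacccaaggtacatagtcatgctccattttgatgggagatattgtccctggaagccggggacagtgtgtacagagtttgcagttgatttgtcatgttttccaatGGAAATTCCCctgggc
Traf6 at 17987 bp: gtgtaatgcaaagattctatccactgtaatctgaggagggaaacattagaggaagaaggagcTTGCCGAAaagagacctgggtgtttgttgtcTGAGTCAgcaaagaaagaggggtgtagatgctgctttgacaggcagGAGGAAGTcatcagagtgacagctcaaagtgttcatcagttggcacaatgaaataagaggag
Ly96 at 14973 bp: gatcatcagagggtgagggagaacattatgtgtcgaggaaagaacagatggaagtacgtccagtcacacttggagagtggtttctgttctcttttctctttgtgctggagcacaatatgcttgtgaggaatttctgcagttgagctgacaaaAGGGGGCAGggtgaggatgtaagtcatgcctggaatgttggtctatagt
The first window holds a cAMP response element and the next has letters of STAT6, RUNX and PU.1/ETS. The Irak3 windows hold IRF and C/EBP letters in one case and AP-1 and NF-kB letters in the other. The Traf6 window has C/EBP, AP-1 and PU.1/ETS letters, and the Ly96 window holds the CTCF core.

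The 200 bases just before the most upstream start site are shown for 3 members that differ in CpG content. By the ratio of observed to expected CpG around the best start site summit, Irak2 and Traf6 were at percentiles 48.1 and 48.3. Ticam1 was at 10.8. These are percentiles of coding genes with a start site summit. Their best scores were at percentiles 70.7, 59.3 and 91.6. CpG sites are in capitals. The stretches lie at chr6:113638267-113638466 (Irak2, plus strand), chr2:101678229-101678428 (Traf6, plus strand) and chr17:56276787-56276986 (Ticam1, minus strand).
Irak2 promoter: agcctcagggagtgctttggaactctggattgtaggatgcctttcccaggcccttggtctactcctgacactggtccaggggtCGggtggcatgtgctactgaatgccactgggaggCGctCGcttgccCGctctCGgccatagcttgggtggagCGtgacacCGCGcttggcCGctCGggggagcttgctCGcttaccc
Traf6 promoter: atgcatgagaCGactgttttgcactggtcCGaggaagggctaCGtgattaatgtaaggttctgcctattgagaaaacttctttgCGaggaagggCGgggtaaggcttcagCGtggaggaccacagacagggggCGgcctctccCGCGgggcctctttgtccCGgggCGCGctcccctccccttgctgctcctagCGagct
Ticam1 promoter: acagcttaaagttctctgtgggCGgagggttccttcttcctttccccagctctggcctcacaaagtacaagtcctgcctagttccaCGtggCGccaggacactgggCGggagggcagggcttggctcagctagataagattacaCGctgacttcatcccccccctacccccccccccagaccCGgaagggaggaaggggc
They contain 11, 13 and 6 CpG sites, and the summit scores in them were 1734, 1581 and 2061.

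A peak no more than 1000 bp from a start site was present at all 10 members, against 56.5% of all protein-coding genes, and all 30 other genes of the pathway that were examined had one as well. The best score at a start site ranged from 1129 at Ly96 to 2114 at Myd88, with a median of 1632. The median over the 12321 coding genes with a summit at a start site was 1456, with an interquartile range of 1071 to 1799. Myd88, Ticam1 and Irak4 lay above that range, and no member lay below it. Of the 10 members, 9 had 2 or more start site peaks, which was the case for 6490 of the 12402 coding genes with any such peak (52.3%). The pathway genes had a median of 1574.5, with the highest scores at Ube2n (2232), which encodes a ubiquitin-conjugating enzyme used by TRAF6, at the TLR chaperone gene Hsp90b1 (2153) and at Ikbke (2140), which encodes an IKK-related kinase.

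**Figure D1:**
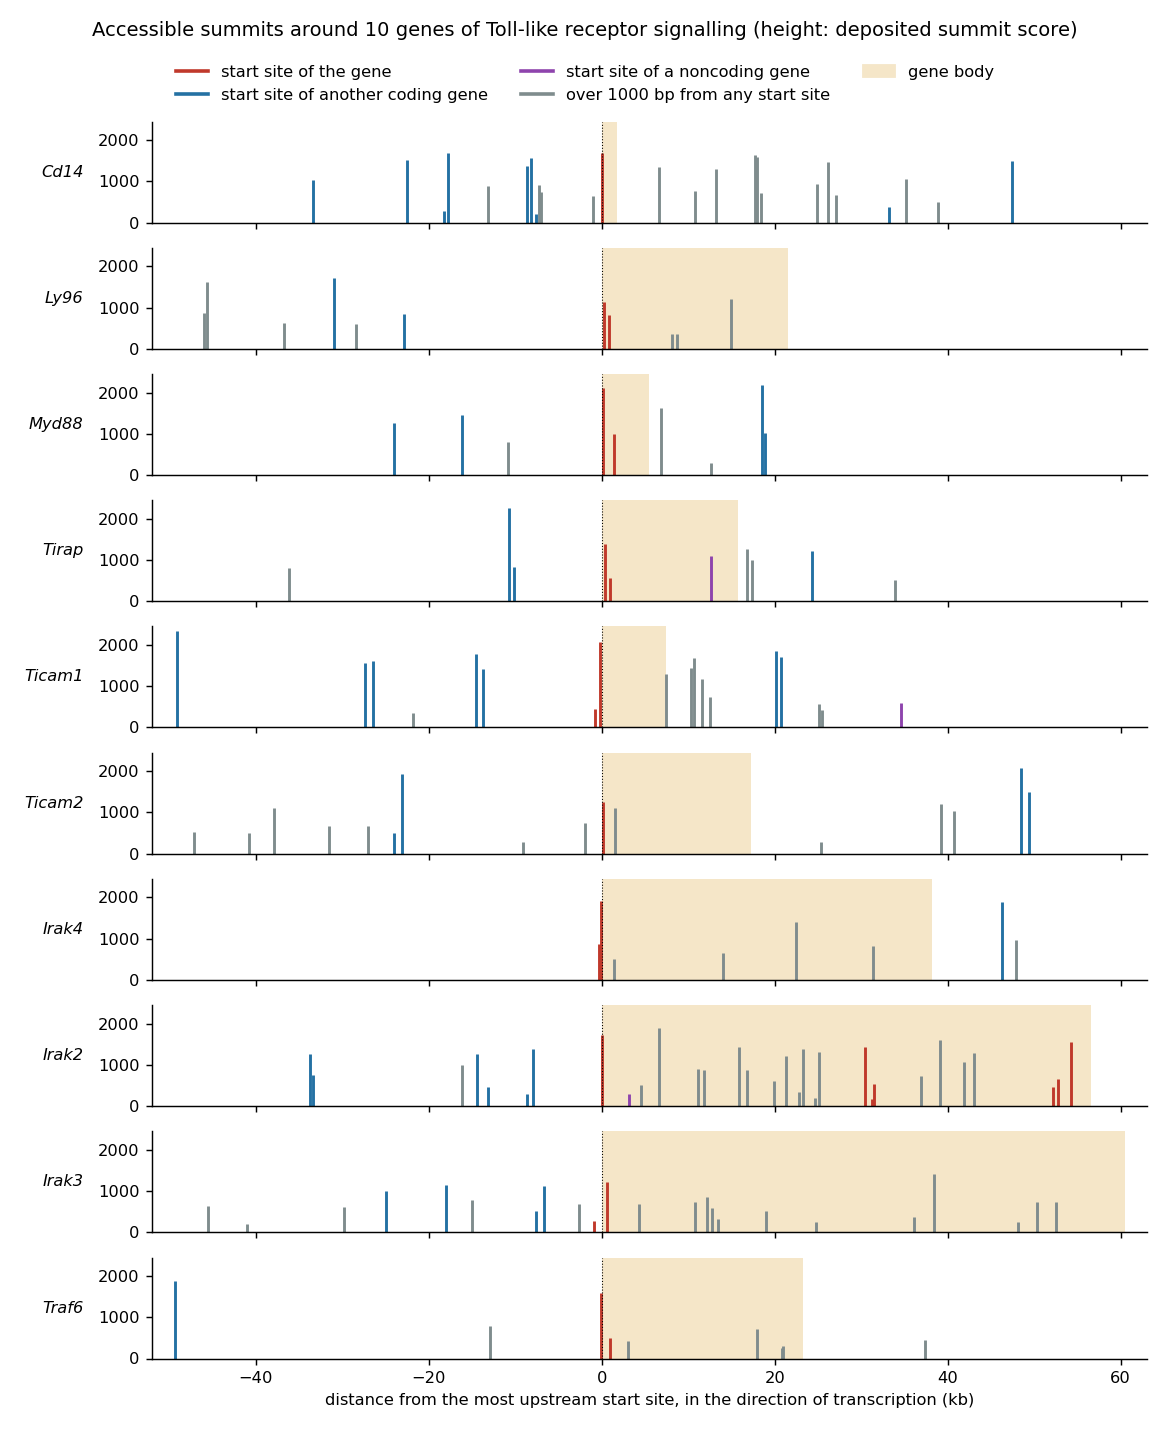
Position and score of the 160 summits around the 10 genes. The horizontal axis gives the distance from the gene's most upstream start in kb in the direction of transcription, the height of a line is the deposited score, colour gives the kind of site and shading the gene body. Irak2 and Irak3 have many summits inside the gene, whereas at Cd14 and Ticam1 most lie outside it.

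The number of extended regions in the window ranged from 6 to 19. It was 19 at Irak3, 15 at Cd14 and Irak2, 12 at Ticam2, 10 at Ticam1, 8 at Ly96, 7 at Myd88, Tirap and Traf6, and 6 at Irak4. The median was 9 against 5 over all coding genes, and all 10 members lay above that median. Over the 12402 coding genes with a start site peak the median was 7, and over the pathway genes it was 9.5. Long genes have a longer window: that of Irak3 covered 110483 bp and that of Irak2 106560 bp, against 100001 bp for the other members.

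**Figure D2:**
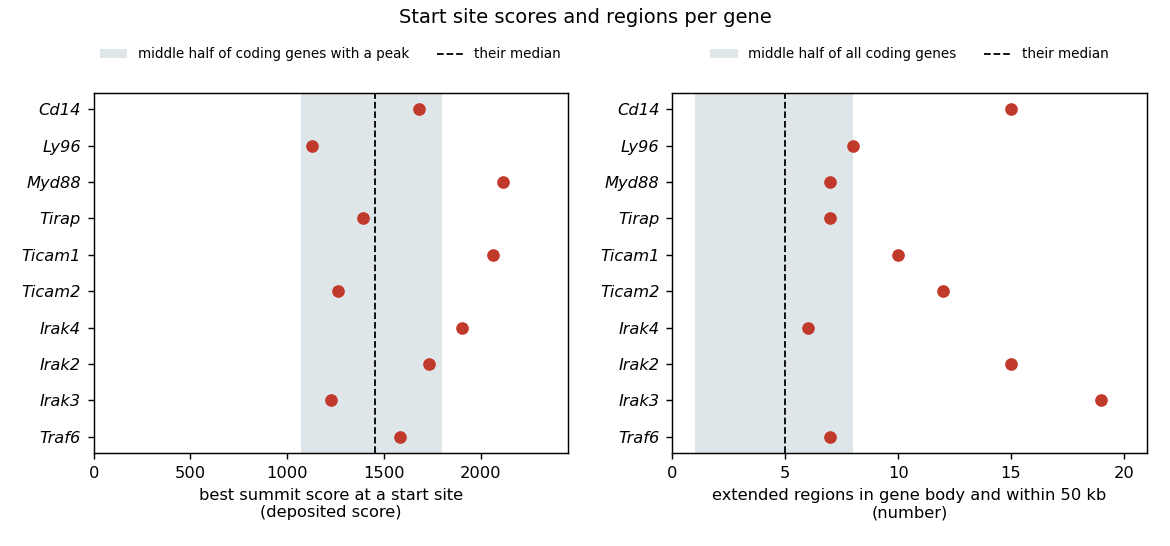
Best start site score (left, deposited score) and number of extended regions in the window (right) of each gene, as points. The band and dashed line give the interquartile range and median of coding genes, over those with a start site summit on the left and over all on the right. Myd88, Ticam1 and Irak4 are right of the band in the left panel, and Irak3, Irak2, Cd14, Ticam2 and Ticam1 in the right panel.

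The co-receptor genes differed in their surroundings. Cd14, whose product binds LPS at the cell surface, is a short gene of 1732 bp (chr18:36725067-36726798, minus strand) in a gene-dense stretch. Its window held 22 peaks with 25 summits, more summits than that of any other member except Irak2. The start site summit at 37 bp, in an untranslated exon, had a score of 1683, and it was the only summit in the gene. An equal score was found at -17800 bp, 41 bp from a start site of Ndufa2, and in all 9 of the 25 summits lay at start sites of other coding genes. The other 15 were distal, that is, over 1000 bp from every annotated start site. Of these, 4 had Cd14 as their nearest coding start site, and those at 6619, 13219 and 10781 bp, beyond the end of the gene, scored 1345, 1296 and 759. A pair of higher distal summits at 17766 and 17917 bp (1644 and 1594) was nearer to E230025N22Rik.

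Ly96 (chr1:16688051-16709611, plus strand), which encodes the LPS-binding partner of TLR4, had 11 summits. Its best start site score of 1129, at 272 bp, was the lowest of the 10 members, at percentile 29.1 of coding genes with a start site summit. The most upstream transcript of this gene is a retained intron form, and the first coding transcript starts at 382 bp. A further start site summit at 840 bp scored 823. The strongest intragenic summit was in intron 3, at 14973 bp, with 1212, above the start site itself, while those in intron 2 scored 367 and 358. The best summit of the window, 1721 at -30980 bp, belonged to the start site of Eloc.

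Among the adaptors, Myd88 and Ticam1 had the highest start site scores of all members, and Tirap and Ticam2 had scores below the coding median. Myd88 (chr9:119335934-119341411, minus strand) shares its most upstream promoter with Acaa1a, a peroxisomal thiolase gene that starts 3 bp away on the opposite strand. Its best summit, 2114 at 131 bp, was 14 bp from a start site of Acaa1a, so that the accessibility of the gene pair cannot be told apart. A further summit at 1380 bp scored 990 and had letters of NF-kB, IRF and STAT within 100 bp. It was 10 bp from the start of the transcript with the longest coding sequence. No distal summit was nearest to Myd88. The best score of its window, 2179, was at a start site of Oxsr1.

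Tirap (chr9:35184551-35200291, minus strand) also lies head to head with another gene, Srpr, which encodes a subunit of the signal recognition particle receptor and starts 116 bp away. Its best summit at 314 bp, with 1394, was 7 bp from one of its 7 annotated start sites. A smaller summit at 914 bp scored 563. The summit with 1094 at 12610 bp, in an untranslated exon, was assigned to a start site of the noncoding gene Gm39318. Tirap had no distal summit nearest to it, and the best score in its window, 2258, was 6 bp from a start site of Foxred1.

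Ticam1 (chr17:56269319-56276786, minus strand) had 2061 at -172 bp, in the promoter stretch printed above, and 448 at -745 bp. Only 1 distal summit was nearest to it, 1284 at 7447 bp, in the untranslated part of the last exon, with letters of IRF, STAT and C/EBP. Just beyond the gene, an extended region of 3911 bp held 4 summits with scores up to 1683, at 10270 to 12555 bp, which were nearer to Fem1a. The highest score of all 160 summits, 2336, was at the start site of Kdm4b at -49105 bp, just inside the window. Ticam2 (chr18:46557291-46574533, minus strand) had a score of 1260 at 89 bp. It was the only member with 1 start site peak. Summits followed in its first intron at 1503 bp (1106) and upstream at -1910 bp (737) and -9078 bp (282), within Tmed7. The best summits of its window belonged to Fem1c (2074) and Eif1a (1942).

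The kinase genes held 62 of the 160 summits and 40 of the 59 that lay in members' gene bodies. Irak4 (chr15:94543643-94581815, plus strand), the kinase that starts the phosphorylation cascade on MyD88, had few sites: 8 summits, of which 4 were intronic. Its best summit, 1903 at -60 bp, was 36 bp from the start site of Pus7l, a pseudouridine synthase gene on the opposite strand that starts 96 bp from Irak4. Another summit of the shared promoter scored 878 at -305 bp. Distal summits nearest to Irak4 were those at 13995 bp (644), with letters of STAT6 and the CTCF core, and at 1388 bp (515). Intron 10 held a stronger site of 1406 at 22414 bp.

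Irak2 (chr6:113638467-113695026, plus strand), a kinase that sustains late TLR signalling, carried more intragenic sites than any other member, and the most per length among the members of 10 kb or more. Its body of 56560 bp held 23 summits, or 4.07 per 10 kb. This was at percentile 98.96 of the 14164 coding genes of 10 kb or more, whose median was 0.429. The promoter summit at -23 bp scored 1734. The highest score was not at the promoter but in intron 1 at 6595 bp, with 1890, at percentile 96.8 of all summits. It is the window with the cAMP response element, TGACGTCA, which lies 44 bp before the summit. Intron 2, of 17881 bp, held 10 summits with scores from 196 to 1443. Of these, 6 were joined in an extended region of 6758 bp at chr6:113657606-113664363, the most summits in any region of the 10 genes, with scores of 613, 1212, 341, 1381, 196 and 1308. The 1381 summit is the window with STAT6, RUNX and PU.1/ETS letters.

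Further along Irak2, summits of 1606 in intron 8 (39083 bp) and 1071 and 1284 in intron 9 followed. By the 1000 bp rule 7 of its summits were at its own start sites, but 6 of them lay at starts of processed or retained intron transcripts inside the gene. The summit at 30387 bp, with 1443, was 4 bp from such a start and had NF-kB letters 10 bp after it as well as IRF letters. The one at 31506 bp, with 544, also had NF-kB letters, 14 bp before the summit. Near the 3′ end, the site at 54214 bp scored 1543. A peak around 52126 bp (467) was also within reach of the start of Gm43912.

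Irak3 (chr10:120141648-120202130, minus strand), which encodes the inhibitory IRAK-M, had the most extended regions of the members, at percentile 98.96 of coding genes, but lower scores than Irak2. Its 13 intragenic summits, 2.15 per 10 kb, were at percentile 93.4 of genes of that length. The promoter summit at 565 bp scored 1224 and lay 22 bp from an annotated start site. Tmbim4 starts 472 bp from the most upstream Irak3 start on the opposite strand. Intron 1 held 6 summits with scores of 332 to 856, of which 4 were joined in a region of 4390 bp. The best summit of the whole window was in intron 8, at 38445 bp, with 1406, higher than the promoter, and its sequence with IRF and C/EBP letters is given above. It was 1 of 4 summits in that intron, and the others scored 242, 727 and 737. The summit at 13434 bp, with AP-1 and NF-kB letters, was among the weak sites of the gene at 332.

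**Figure D3:**
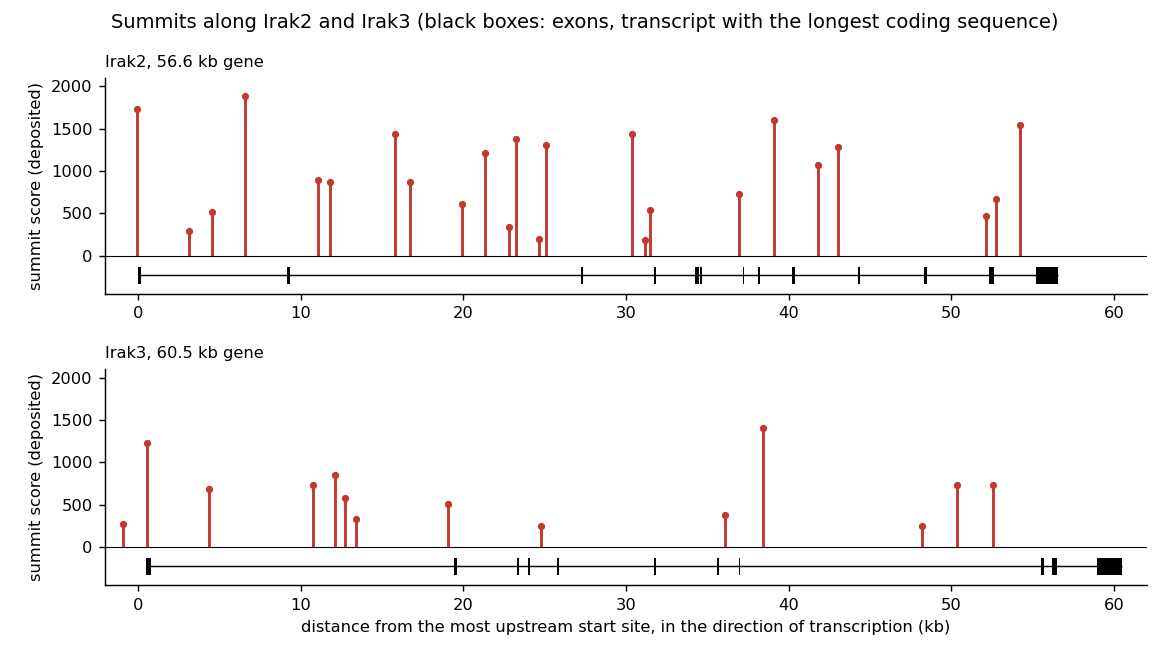
Summits along Irak2 and Irak3. Lines with points give the deposited score of each summit against its distance from the gene's most upstream start in kb, and black boxes mark the exons of the transcript with the longest coding sequence. In each gene an intronic summit exceeds the promoter summit, 1890 against 1734 in Irak2 and 1406 against 1224 in Irak3.

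Traf6 (chr2:101678429-101701669, plus strand), the ubiquitin ligase downstream of the IRAK kinases, had 9 summits, and 8 of them were nearest to Traf6 itself. Its promoter summit at -49 bp scored 1581. The remaining scores around the gene were lower, with 486 at 944 bp, with NF-kB, STAT6 and C/EBP letters, 780 at -12944 bp, 706 at 17987 bp, 448 at 37432 bp, 421 at 3042 bp, and 315 and 250 at 20980 and 20817 bp. The printed window at 17987 bp carries PU.1/ETS, AP-1 and C/EBP letters. Only the start site of B230118H07Rik at -49402 bp, at the border of the window, exceeded the promoter with 1890.

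Over all members, 23 summits lay at a start site of the member, 41 at a start site of another coding gene, 3 at that of a noncoding gene, and 93 were distal. The median scores were 1129, 1381, 583 and 737. Together 67 of 160 summits (41.9%) were at a start site of any gene, with a Wilson interval at 95% of 34.5 to 49.6%, against 29.3% of all summits. Every window holds a start site by the rule, which alone raises this share. With the same rule, 33.8% of the distinct summits around the 12321 coding genes with a start site summit were at a start site, and the median share per gene was 38.8% over members against 46.7% over those genes. Such intervals cover counting error only, and summits of a gene are not independent. Of the 59 summits in gene bodies, 47 were intronic, 10 in untranslated exons and 2 in exons of noncoding transcripts. Irak2 and Irak3, the longest of these genes, together held 36 (61.0%). Just 68 of the 160 summits had the member as nearest coding start site, 24 of them at Irak2, 13 at Irak3 and 8 at Traf6.

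Shared promoters were counted as a coding start site on the opposite strand within 1000 bp of the most upstream start. This held for 4 of 10 members, Myd88, Irak4, Tirap and Irak3, against 11.8% of coding genes. For Myd88 it concerns the most upstream start, as the transcript with the longest coding sequence starts 1370 bp downstream. Base composition around the best start site summit varied widely. The ratio of observed to expected CpG in the 201 bases was 0 at Ly96, with GC at 36.3%, and 0.309 at Ticam1, 0.421 at Ticam2, 0.524 at Irak4, 0.546 at Cd14 and 0.580 at Myd88. It was 0.793 at Irak2 and at Traf6, 0.842 at Tirap and 0.897 at Irak3. The median was 0.563, against 0.804 over 12321 coding genes, with an interquartile range of 0.596 to 0.952, so that 6 of 10 members were below that range. The score did not follow this order: Ticam1 and Myd88 had the highest scores with low ratios, and Ly96 had the lowest of both. The promoters of Irak3 and Tirap would appear CpG-poor from the annotated most upstream start, which lies 565 and 314 bp from the summit. From 250 bases before that start to 50 after it the ratios were 0.489 and 0.123. Myd88 went the other way, from 0.580 at the summit to 0.861 there, the highest of the 10. Its low ratio thus holds for the summit window only.

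The 100 bp to each side of a summit were searched for letters of 17 motifs, on both strands. The spelled motifs were GAGGAAGT for PU.1/ETS, TGACTCA for AP-1, GAAANNGAA for IRF, TTCNNNGAA for STAT, TTGCNNAA for C/EBP, TGTGGTT for RUNX, AGGNGGCNG for the CTCF core, GGGCGGGG for SP/KLF, TGACGTCA for the cAMP response element, CCGGAAGT for ETS, GCGCATGCG for NRF1, AAGATGGCG for YY1, CCAATCA for NF-Y, TCACGTGA for the E-box and CTAAAAATA for MEF2. STAT6 was searched as TTC and GAA separated by 4 bases, and NF-kB by its usual degenerate consensus. The PU.1/ETS and ETS motifs share the letters GGAAGT, and a match is a description, not a bound site.

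Among the factors named with TLR signalling, AP-1 letters were found at 25 of the 160 summits (15.6%), against 15.9% of all summits, NF-kB letters at 12 (7.5%) against 5.55%, and IRF letters at 12 against 8.12%. STAT letters were found at 12 against 6.35% and STAT6 letters at 12 against 6.81%. For the factors of the myeloid lineage, C/EBP letters occurred at 20 summits (12.5%) against 11.4%, PU.1/ETS letters at 16 (10%) against 9.08%, and RUNX letters at 12 against 7.91%. These shares were near those of all summits, with the background inside the Wilson interval of each. The CTCF core was at 22 summits (13.75%, interval 9.26 to 19.9%) against 8.7%. Its letters are more frequent at start sites than at distal sites over all summits, and with the members' mix of both the share over all summits would be 9.86%, inside the interval. By kind of site, the core was at 11 of 67 members' summits at a start site of any gene (16.4%, against 15.2%), at 2 of the 23 at their own start sites (8.70%) and at 11 of 93 distal ones (11.8%, interval 6.73 to 19.9%, against 5.996%). The background thus lay outside the interval among all 93 distal summits, where the mix plays no part, and inside it at start sites. Among the 47 distal summits nearest to a member the core was at 6 (12.8%, interval 5.98 to 25.2%), with the background just inside. For these 47 the background was also inside at 50 and at 200 bp. Such intervals were drawn for each motif by kind of site and window, with no adjustment for their number. With 50 bp around summits the share over all 93 distal summits was 7.53% (interval 3.69 to 14.7%), with the background of 3.56% again outside. With 200 bp it was 12.9% (7.54 to 21.2%), with 10.0% inside. Over all 160 summits the background lay inside the interval at 50 and at 200 bp. Promoter motifs were at 11 summits for SP/KLF against 7.15%, at 6 for NF-Y against 3.41%, at 4 for ETS against 1.57% and at 2 for YY1 against 0.522%. The cAMP response element was at 2 against 0.938%, the E-box at 1 against 0.496% and MEF2 at 1 against 0.736%. NRF1 letters were not found at any of the 160 summits (0%), against 0.573%. A count of 0 allows a share of up to 1.875% by the limit of 3 counts and 2.34% by the Wilson interval drawn for the other motifs.

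**Figure D4:**
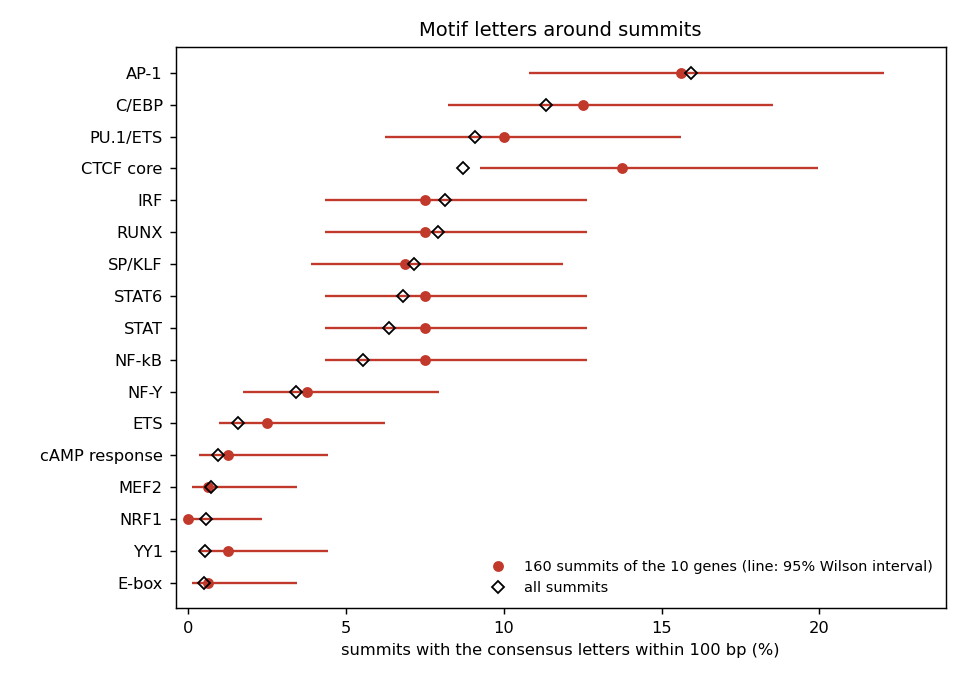
Share of summits with each motif's letters within 100 bp, in percent. Filled points are the 160 summits of the 10 genes with Wilson intervals at 95%, and open diamonds are all 84660 summits. At 100 bp the CTCF core is the only motif whose share over all summits, 8.7%, lies outside the interval, which was not the case at 50 or 200 bp or with the members' mix of start site and distal summits.

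By kind of site, NF-kB letters were at 5 of the 67 members' summits at a start site of any gene (7.46%, Wilson interval 3.23 to 16.3%, against 5.08% of all start site summits) and at 7 of the 93 distal ones (7.53%, interval 3.69 to 14.7%, against 5.75%), near the background in each. At members' own start sites they were within 100 bp at 4 of 23 summits (17.4%, interval 6.98 to 37.1%), with the background of 5.08% below the interval. These were the Myd88 summit at 1380 bp, in the first exon of the transcript with the longest coding sequence and 10 bp from its start, a pair of summits at starts of processed or retained intron transcripts of Irak2, and the site at 944 bp in Traf6. RUNX letters were at 3 of the 23 (13.04%, interval 4.54 to 32.1%), at Ly96, Ticam1 and Irak2, with their background of 4.40% also below the interval. At these 23 summits the RUNX background was inside the interval at 50 bp (2.503%) and at 200 bp (7.056%). The NF-kB background was below the interval at 50 bp (3.003%) but inside it at 200 bp (8.541%). None of the best scored start site summits of the 10 genes had NF-kB or RUNX letters. Of the 47 distal summits nearest to a member, 1 held NF-kB letters (2.13%, interval 0.377 to 11.1%), the Irak3 site at 13434 bp. C/EBP letters were at 17 of the 93 distal summits (18.3%, interval 11.7 to 27.3%, against 13.1%) and PU.1/ETS letters at 13 (14.0%, interval 8.35 to 22.5%, against 10.7%), with the background inside both intervals. For C/EBP it was inside at 50 bp as well, but outside at 200 bp (28 of 93, 30.1%, interval 21.7 to 40.1%, against 20.7%). At the best promoter summits, SP/KLF letters were present at Myd88 and Traf6 and the CTCF core at Irak4 and Traf6, that is, each at 2 of 10, against 20.0% and 15.2% of all start site summits. The other 7 had none of the 17 motifs, and the share of all start site summits with none of them was not counted.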

How the data were processed

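ATAC-seq libraries of 18 BMDM cultures were sequenced by the authors as single-end reads. According to the study's methods, adapters were removed with BBDuk, reads were trimmed with Trimmomatic 0.39 and placed on mm10 with ShortStack, mitochondrial and low quality reads were removed with SAMtools 1.9, and peaks were called with MACS2 2.2.6 with duplicates kept and no shift of reads to the Tn5 cut named. Peaks below a stringent q-value that overlapped between replicates were kept. The 3 deposited BED lists hold positions on mm10, and the summit list also holds a score per summit, as deposited by the authors. No list has a column per library, so no depth per sample, replicate error or test could be given.

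Genes were taken from GENCODE M21, and sequence from GRCm38.p6, with positions counted from 1. All starts of all transcripts were used as start sites. Percentiles are shares of coding genes with an equal or lower value. Counts were made with Python 3.11.15 and pandas 2.3.3 and tested on simulated data. All 10 members are named, along with pathway genes with the 3 highest start site scores, neighbours that share a start site peak or own the best summit of a window, and the 3 best distal summits nearest to each member. Other summits, and the sequences printed, were chosen after their values were seen. The members and lists were chosen with earlier results of these data known. Other distances, transcript sets, site types and score limits were tried.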

Additional observations from a re-analysis of the deposited data

How the results depend on the processing

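Of 51 alternative values, 35 stayed within 1.5 times a count, within the 95% Wilson interval of a share or within 1 SD over members of a median, and 16 did not. All 10 members kept a start site peak with 500 bp, 2500 bp, the most upstream start site or protein-coding transcripts only. The 154 peaks found by the gene rule fell to 62 in gene bodies alone, 94 with summits at or above the median score, and 67 where the member had the nearest coding start site. The median number of regions fell from 9 to 5 with 20000 bp, within 1 SD over members (2 over coding genes). It moved to 14.5 with 100000 bp, and to 13.5 where peaks or summits were counted, while the median over coding genes became 9, 6 and 6. The share of summits at a start site was 34.4% with 500 bp and 52.5% with 2500 bp, against 23.2% and 40.3% of all summits. With 50 bp around summits, motif shares became 6.25% for C/EBP (6.50% over all summits), 3.125% for RUNX (4.72%), 6.875% for the CTCF core (4.90%), 3.125% for SP/KLF (4.35%) and 0% for YY1 (0.206%). With 200 bp, IRF was at 13.125% (14.4% over all summits), STAT6 at 15% (11.8%) and C/EBP at 23.125% (18.4%). Longer windows hold more letters by construction. For the CTCF core, the share over all summits lay outside the interval at 100 bp but inside it at 50 bp (6.875%, interval 3.88 to 11.9%, against 4.90%) and at 200 bp (18.125%, 12.9 to 24.8%, against 14.2%). For ETS it was inside at 50 and 100 bp and just outside at 200 bp (4.375% against 2.12%). No paired analysis was possible because the lists carry no column per library, and for the same reason no replicate could be left out. Sequencing depth per library is unknown here.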
